A study of Mus musculus with 6 samples.

Results

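The genes described here carry glucose into the cell, break it down to pyruvate and lactate, pass pyruvate to the mitochondrion, or run the pentose phosphate pathway. They were chosen by name and not by a measured value, although earlier results of these data were known at the time. All 36 were present among the 46963 gene names of the count table. RNA of mouse splenic B-cells, obtained by removing CD43+ cells, was sequenced from wt mice, Eμ-deficient mice and 3′RR-deficient mice. Eμ and the 3′RR are enhancers of the immunoglobulin heavy chain (IgH) locus, and each mutant strain lacks the enhancer it is named for in every cell. The methods call the first strain EμMAR-deficient, after the enhancer and the matrix attachment regions beside it, and such mice are known to have few follicular B-cells. Per the methods all strains shared a background, and males and females of 8 to 12 weeks were used. Each genotype gave a resting library and a library of cells stimulated in vitro for 2 days with 5 μg per ml of lipopolysaccharide (LPS), a bacterial cell wall molecule to which B-cells respond by dividing, so that 6 libraries were compared. The protocol text of the labels writes the dose in mg per ml, and the labels describe the resting cells as cultured whereas the methods describe them as taken before stimulation. Each library pooled 2 mice according to the labels, and no genotype had a second library in either state. The deleted enhancers have no row in the table, so the deletions themselves were not checked on these counts.

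Glycolysis splits glucose into pyruvate and yields ATP in the cytosol. Pyruvate is either reduced to lactate, which regenerates the NAD+ that glycolysis uses, or enters the mitochondrion through pyruvate dehydrogenase. The pentose phosphate pathway branches off at glucose phosphate. Its oxidative arm makes NADPH and its non-oxidative arm exchanges carbon between sugar phosphates and supplies the ribose of nucleotides. Lymphocytes are known to raise glucose use when they leave the resting state and grow.

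The sequences before the transcription start of Pgk1, Gapdh, Tpi1 and Ldha are shown because these genes had the largest increases from resting to LPS-stimulated B-cells. Each is 250 bases long, reads 5′ to 3′ on the gene's own strand and ends just before a RefSeq start in GRCm38.p6. The windows are chrX:106186850-106187099 (+) for Pgk1, chr6:125165774-125166023 (-) for Gapdh, chr6:124814159-124814408 (-) for Tpi1 and chr7:46845554-46845803 (+) for Ldha. Capitals mark CACGTG, the E-box known to be bound by Myc and its relatives, and ACGTG and GCGTG, the core letters of the element bound by the hypoxia-inducible factor, each searched on both strands. ACGTG lies within CACGTG, so that an E-box counts for both.
Pgk1: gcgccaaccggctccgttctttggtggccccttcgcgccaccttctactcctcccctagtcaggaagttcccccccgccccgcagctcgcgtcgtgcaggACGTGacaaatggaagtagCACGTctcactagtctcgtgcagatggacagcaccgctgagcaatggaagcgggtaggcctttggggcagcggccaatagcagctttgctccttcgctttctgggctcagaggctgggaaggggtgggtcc
Gapdh: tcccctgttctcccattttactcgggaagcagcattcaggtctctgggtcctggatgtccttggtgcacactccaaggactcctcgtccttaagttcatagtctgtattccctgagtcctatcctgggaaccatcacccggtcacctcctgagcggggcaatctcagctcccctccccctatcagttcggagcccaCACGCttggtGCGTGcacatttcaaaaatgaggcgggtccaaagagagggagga
Tpi1: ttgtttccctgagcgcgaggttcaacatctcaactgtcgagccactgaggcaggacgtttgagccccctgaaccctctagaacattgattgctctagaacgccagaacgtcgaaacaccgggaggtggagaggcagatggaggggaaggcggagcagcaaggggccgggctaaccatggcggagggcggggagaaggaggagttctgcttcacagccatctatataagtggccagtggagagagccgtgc
Ldha: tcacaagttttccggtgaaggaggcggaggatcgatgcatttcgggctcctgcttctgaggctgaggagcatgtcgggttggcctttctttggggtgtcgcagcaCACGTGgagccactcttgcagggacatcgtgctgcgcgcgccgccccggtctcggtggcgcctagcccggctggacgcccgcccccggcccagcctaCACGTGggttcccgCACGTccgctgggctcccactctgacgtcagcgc
The Pgk1 window held 2 matches to ACGTG, the Gapdh window 2 matches to GCGTG, and the Ldha window 2 matches to CACGTG and a further match to ACGTG, while no searched letters were found in the Tpi1 window. RefSeq windows reaching from 250 bases before to 50 after a start were at hand for 35 members, Slc2a3 being the exception, and some genes had several. ACGTG was found for 19 of these 35 genes (54.3%) against 21.8% of 27025 genes, GCGTG for 23 (65.7%) against 35.2%, and CACGTG for 5 (14.3%) against 8.09%. The members' windows also had more G and C, with a median of 60.7% against 52.7% over all windows. Among the 18 members that rose with LPS, ACGTG was found for 10, GCGTG for 12 and CACGTG for 2. A match is a description of letters in these windows.

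The 6 libraries held between 9111974 and 21998587 counts in genes, and added spike-in RNAs took 4.75% to 7.10% of all counts. Values are given as CPM, counts divided by library sizes scaled with TMM, and 1 CPM stood for 8.91 to 20.9 counts. Because each library is alone in its group, the tests came from an edgeR quasi-likelihood model of all 6 libraries with additive terms for genotype and culture state, in which a gene is called at a Benjamini-Hochberg adjusted p under 0.05 over 14600 genes. The spread it uses is the departure from additivity, with 2 residual degrees of freedom, and not the spread between mice. B-cell markers summed to 1965 to 3036 CPM in resting and 1688 to 2013 CPM in LPS-stimulated libraries, with 1 of 6 called lower. Erythroid markers summed to 3377, 20378 and 3906 CPM in resting wt, Eμ-deficient and 3′RR-deficient B-cells and to 52.9, 672 and 134 CPM after LPS, and all 7 were called both lower with LPS and higher in Eμ-deficient B-cells. Macrophage and neutrophil markers summed to 164 to 393 CPM in resting and 25.6 to 39.5 CPM in LPS-stimulated libraries, with 8 of the 8 tested called lower. T-cell markers went from 15.1 to 32.3 CPM down to 0.335 to 4.68 CPM (5 of 6 called lower), NK cell markers from 3.08 to 4.37 down to 0 to 1.41 CPM (2 of 2 tested), and platelet markers from 6.73 to 18.9 down to 1.91 to 4.31 CPM (2 of 3 tested). Plasma cell markers summed to 546, 2232 and 591 CPM at rest and to 582, 1589 and 890 CPM after LPS in the same order of genotypes, with 2 of 5 called higher. Of the pairs of libraries compared, the LPS-stimulated 3′RR-deficient and wt ones differed most in base composition. Spearman's rho between the log2 ratio of 3′RR-deficient to wt and the GC content of a gene was 0.57 there. Such a ratio does not show which of its libraries departs. Results that rest on the LPS-stimulated 3′RR-deficient library are given with and without it or that trend. In such bulk samples, fewer cells of a type and less RNA per cell cannot be told apart.

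The first question was which of these genes differ between resting and LPS-stimulated B-cells. In LPS-stimulated B-cells 5 of the 7 genes of the lower part of glycolysis, the lactate dehydrogenase Ldha and 6 of the 7 pentose phosphate genes were called higher, and the glucose carrier Slc2a3, the hexokinase Hk3 and the enolase Eno3 were lower. Of the 35 members tested, 18 were called higher and 3 lower, where 19.7% of all genes tested were called higher and 21.1% lower, 40.8% in all. The median log2 fold change was 0.87 over the members and -0.07 over all genes. In single-genotype ratios, 22 of the 35 were higher in all 3 genotypes (31.6% of all genes), 5 were lower in all 3 (36.1%) and 8 were mixed. For 21 members every LPS-stimulated library lay above every resting one (25% of all genes), and for 3 every one lay below (27.3%). Without the Eμ-deficient libraries the model called 12 higher and 3 lower, without the 3′RR-deficient ones 14 and 4, and without the wt ones 24 and 3. The calls over all genes moved as well. In the same order, 2115 of 14132, 2261 of 14051 and 3426 of 13888 genes were called higher, and 1845, 2517 and 3229 lower. The 36 members together took 0.179%, 0.125% and 0.150% of the gene counts in resting wt, Eμ-deficient and 3′RR-deficient B-cells, and 0.316%, 0.358% and 0.635% after LPS. The LPS-stimulated 3′RR-deficient library thus held the largest share, and the resting Eμ-deficient library the smallest. These are shares of raw counts, from which no trend on GC content was removed. Abundant noncoding RNAs such as Rn7sk took 30.2% of the gene counts in the former and 41.5% in the latter, against 35.0% to 41.0% in the others.

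**Figure D1:**
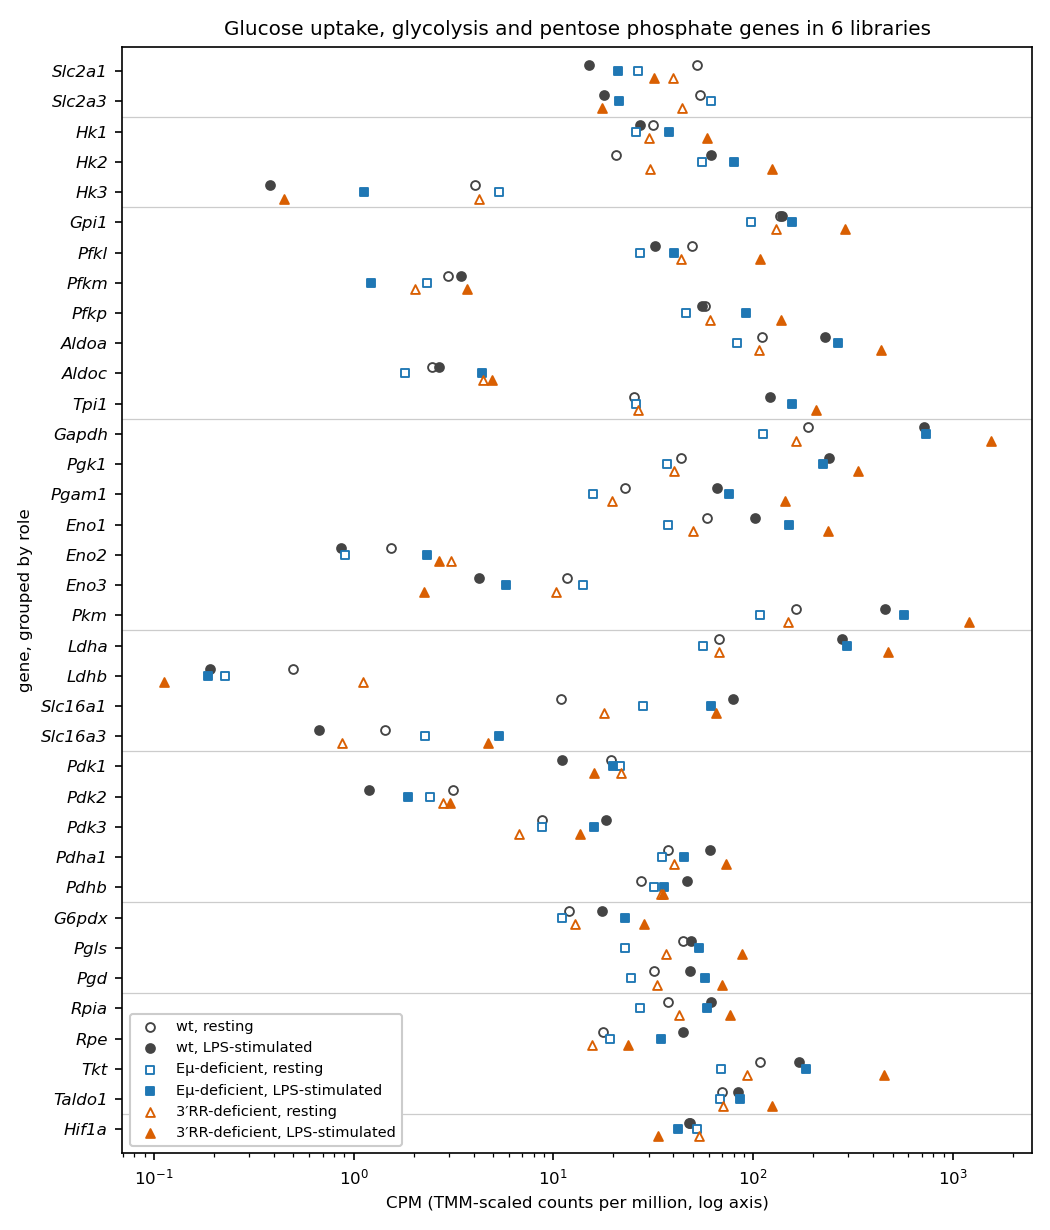
Level of each of the 36 genes in each library, in CPM on a log axis, with open symbols for resting and filled symbols for LPS-stimulated B-cells. Gapdh reached 718 to 1549 CPM in the LPS-stimulated libraries against 112 to 189 CPM in the resting ones, while Slc2a3, Hk3 and Eno3 had their filled symbols to the left of their open ones.

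Neither of the 2 glucose carriers among the members was called higher after LPS. Slc2a3, which encodes the high-affinity carrier GLUT3, had 54.5, 61.4 and 44.3 CPM in resting wt, Eμ-deficient and 3′RR-deficient B-cells and 17.98, 21.4 and 17.6 CPM in the LPS-stimulated ones. All LPS-stimulated libraries lay below all resting ones, and the model gave a log2 fold change of -1.49 ± 0.22 (SE) with an adjusted p of 0.00101. Slc2a1, the carrier GLUT1 found on most cells, had 52.7, 26.5 and 39.6 CPM at rest and 15.1, 21.1 and 31.9 CPM after LPS. It was lower in each genotype, but the groups overlapped, since the LPS-stimulated 3′RR-deficient library lay above the resting Eμ-deficient one, and it was not called (log2 fold change -0.81 ± 0.32, adjusted p = 0.0729). Without the 3′RR-deficient libraries the value was -1.09 with an adjusted p of 0.0332, in a range of 0.0223 to 0.240 over 13 alternatives. The macrophage, T-cell and platelet markers were lower in the same libraries as Slc2a3, and their part in its value was not tested.

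The hexokinases, which trap glucose by phosphorylation, moved in opposite directions. Hk2, the inducible form, had 20.7, 55.6 and 30.5 CPM in resting wt, Eμ-deficient and 3′RR-deficient B-cells and 61.4, 80.2 and 124 CPM after LPS. The LPS-stimulated libraries all lay above the resting ones, although the resting Eμ-deficient library came close to the LPS-stimulated wt one, and Hk2 rose by 1.38 ± 0.31 on the log2 scale (adjusted p = 0.00742). Hk1, the form present in most tissues, had 31.7, 26.0 and 30.3 CPM at rest and 27.2, 37.9 and 59.2 CPM after LPS. It was not called (log2 fold change 0.43 ± 0.27, adjusted p = 0.231), and its wt ratio had the other sign from those of the mutants. Without the wt libraries its value was 0.78 with an adjusted p of 0.00538, in a range up to 0.778 over the alternatives. Hk3, a form known from myeloid cells, had 4.07, 5.37 and 4.23 CPM at rest and 0.383, 1.12 and 0.449 CPM after LPS, the latter from 8, 12 and 4 counts. It fell by 2.90 ± 0.43 on the log2 scale (adjusted p = 0.000978) with no overlap between the groups. The macrophage and neutrophil markers fell in the same libraries, and their part in the Hk3 value was not tested.

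In the upper part of glycolysis, from glucose phosphate to the triose phosphates, 2 of 7 genes were called higher and none lower. Tpi1, triose phosphate isomerase, had 25.5, 25.9 and 26.4 CPM in resting wt, Eμ-deficient and 3′RR-deficient B-cells and 122, 156 and 206 CPM after LPS. The resting values were nearly equal, every LPS-stimulated value was far above them, and the rise was 2.60 ± 0.26 on the log2 scale (adjusted p = 0.00016). Aldoa, the aldolase that splits fructose bisphosphate, had 111, 83.1 and 108 CPM at rest and 230.0, 266 and 440.1 CPM after LPS, a rise of 1.59 ± 0.28 (adjusted p = 0.00241). The groups did not overlap for Aldoa either.

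The isomerase and the phosphofructokinases were not called. Gpi1, which turns glucose phosphate into fructose phosphate, had 137, 97.7 and 131 CPM at rest and 139, 157 and 288 CPM after LPS (log2 fold change 0.62 ± 0.28, adjusted p = 0.11). Its wt pair of libraries was nearly flat, with a log2 ratio of 0.02, or 0.30 with the trend on GC content removed. Phosphofructokinase commits sugar to glycolysis. Its platelet form Pfkp had 57.6, 46.0 and 60.7 CPM at rest and 55.6, 92.3 and 138 CPM after LPS (0.72 ± 0.29, adjusted p = 0.0736). Its liver form Pfkl had 49.2, 27.2 and 43.8 CPM at rest and 32.3, 40.3 and 109 CPM after LPS (0.43 ± 0.35, adjusted p = 0.35). The wt log2 ratio was -0.61 for Pfkl and -0.05 for Pfkp (95% interval -0.17 to 0.07, counting error only), and the ratios of both mutants were above 0 for both forms. Without the wt libraries the model called Gpi1 (0.94, adjusted p = 0.00272), Pfkp (1.12, 0.000337) and Pfkl (0.97, 0.00215), whereas without the 3′RR-deficient libraries these genes had adjusted p values of 0.516, 0.339 and 0.943, the highest of their 13 alternatives. Pfkm, the muscle form, and Aldoc, the aldolase of brain, stayed at 1.22 to 3.70 CPM and 1.82 to 4.94 CPM and were not called.

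The lower part of glycolysis, where ATP is made, held 5 of the 8 largest rises. Summed over its 7 genes, the level was 492, 325 and 438 CPM in resting wt, Eμ-deficient and 3′RR-deficient B-cells and 1592, 1765 and 3486 CPM after LPS. Gapdh, glyceraldehyde phosphate dehydrogenase, had 189, 112 and 165 CPM at rest and 718, 733 and 1549 CPM after LPS. The LPS-stimulated values lay far above the resting ones in each genotype, with the highest in the 3′RR-deficient library, and the rise was 2.63 ± 0.33 on the log2 scale (adjusted p = 0.000476). Pgk1, phosphoglycerate kinase, had 43.8, 37.1 and 40.3 CPM at rest and 240.0, 225 and 337 CPM after LPS, a rise of 2.70 ± 0.26 (adjusted p = 0.000156). Its resting values were close together. Pgam1, phosphoglycerate mutase, had 22.8, 15.8 and 19.7 CPM at rest and 65.8, 75.8 and 145 CPM after LPS (2.22 ± 0.30, adjusted p = 0.000607). Pkm, pyruvate kinase, had 164, 108 and 149.9 CPM at rest and 461, 572 and 1212 CPM after LPS (2.30 ± 0.35, adjusted p = 0.00108). Counts per gene name do not separate the splice forms of Pkm. No LPS-stimulated library overlapped a resting one for any of these 4 genes.

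The enolases, which make phosphoenolpyruvate, diverged. Eno1, the form present in most tissues, had 58.5, 37.4 and 49.8 CPM in resting wt, Eμ-deficient and 3′RR-deficient B-cells and 102, 151 and 238 CPM after LPS, a rise of 1.70 ± 0.32 on the log2 scale (adjusted p = 0.00331). Eno3, the muscle form, had 11.7, 14.1 and 10.4 CPM at rest and 4.26, 5.81 and 2.25 CPM after LPS, a log2 fold change of -1.62 ± 0.30 (adjusted p = 0.00308). Neither gene's groups overlapped. Eno2, the neuronal form, stayed at 0.861 to 3.06 CPM and was not called. Copies of these genes elsewhere in the genome can share reads, because multi-mapping reads were counted. Processed copies of Pgk1, nearly all of it Pgk1-rs7, held 16.6% to 30.8% of the summed counts, 84 copies of Gapdh 7.70% to 11.2%, 3 copies of Eno1 7.44% to 17.8%, and the copy of Pgam1 3.10% to 5.89%. Adding the copies to their parents left 18 members called higher and 3 lower.

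**Figure D2:**
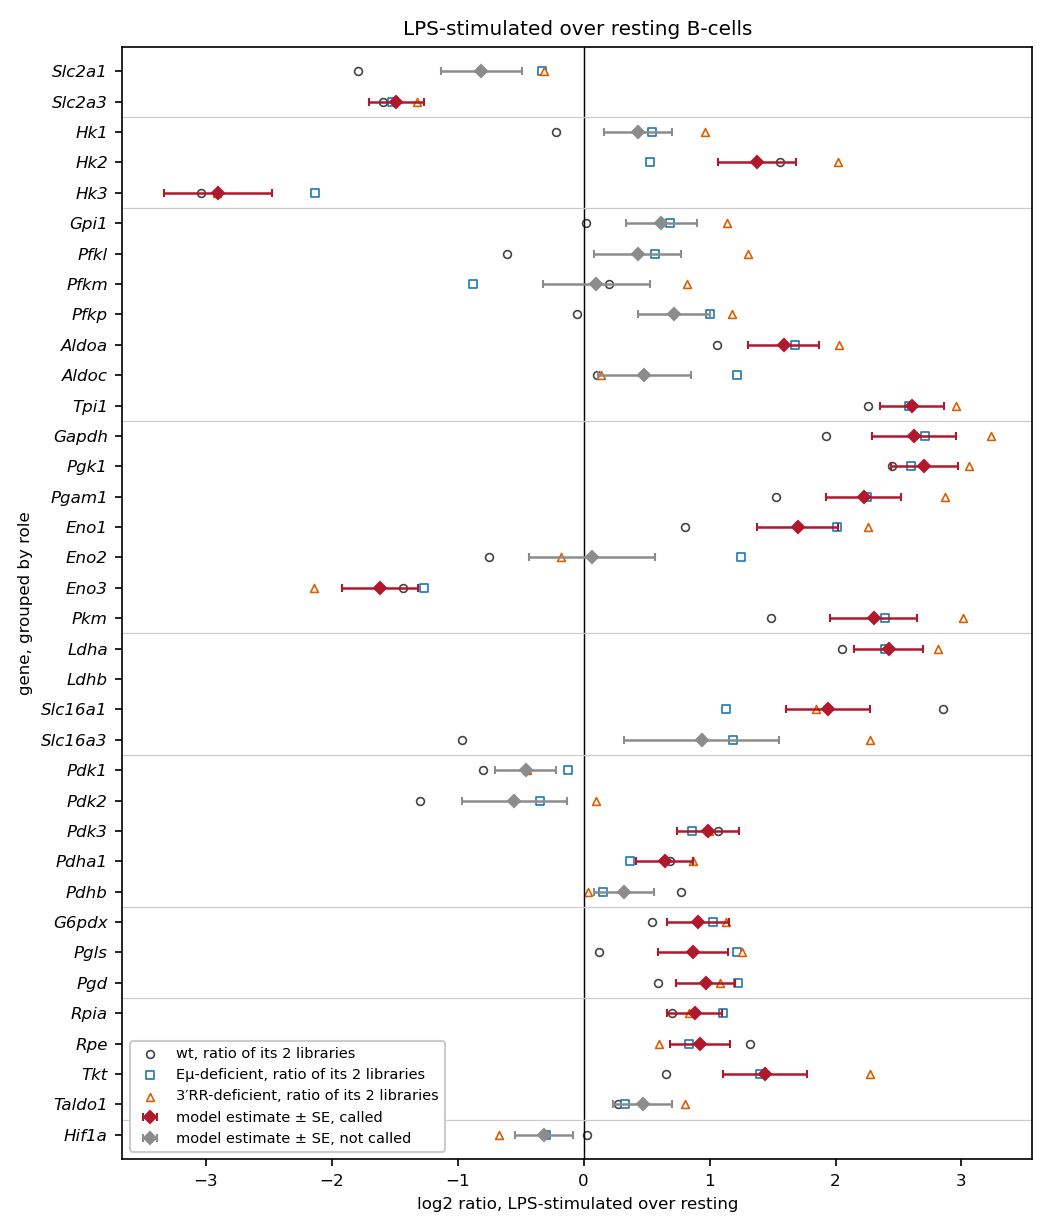
Log2 ratio of LPS-stimulated over resting B-cells for the 36 genes. Open symbols are the ratios of the pair of libraries of each genotype and diamonds the model's estimates with their SE, red where called. The largest estimates were those of Pgk1 (2.70), Gapdh (2.63) and Tpi1 (2.60), the lowest that of Hk3 (-2.90), and the wt ratios of Hk1, Pfkl and Slc16a3 lay on the other side of 0 from the mutant ones. Ldhb was not tested and has no symbol.

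Lactate is made and exported by the next group. Ldha, the lactate dehydrogenase subunit that favours lactate production, had 67.2, 56.4 and 67.6 CPM in resting wt, Eμ-deficient and 3′RR-deficient B-cells and 279, 297 and 476 CPM after LPS. It rose by 2.42 ± 0.27 on the log2 scale (adjusted p = 0.000285), with no overlap. Ldhb, the other subunit, had 9, 3 and 23 counts at rest and 4, 2 and 1 counts after LPS, and it was the member left untested, since fewer than 2 libraries had 10 counts. Slc16a1, the lactate carrier MCT1, had 10.9, 28.1 and 18.03 CPM at rest and 79.9, 61.6 and 65.1 CPM after LPS, and rose by 1.94 ± 0.33 (adjusted p = 0.00206). The wt libraries were the lowest at rest and the highest after LPS. With the trend on GC content removed, wt was still the lowest at rest but no longer the highest after LPS. The log2 ratio of LPS-stimulated 3′RR-deficient to wt then went from -0.29 to 0.20. Slc16a3, the carrier MCT4 of strongly glycolytic cells, had 1.43, 2.27 and 0.875 CPM at rest and 0.669, 5.34 and 4.72 CPM after LPS. It was lower in wt and higher in both mutants, and it was not called (0.94 ± 0.62, adjusted p = 0.251). Without the wt libraries Slc16a3 had a log2 fold change of 1.80 and an adjusted p of 0.0032, in a range up to 0.859 over the alternatives.

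At the entry of pyruvate into the mitochondrion, 2 of 5 genes were called higher. Pdha1, the catalytic alpha subunit of pyruvate dehydrogenase, had 37.7, 35.0 and 40.2 CPM at rest and 60.7, 45.2 and 73.5 CPM after LPS in wt, Eμ-deficient and 3′RR-deficient B-cells (log2 fold change 0.64 ± 0.22, adjusted p = 0.046). The groups did not overlap, but the call held under only 8 of 13 alternatives. It was lost without the Eμ-deficient libraries (0.87, adjusted p = 0.121), without the 3′RR-deficient ones (0.52, adjusted p = 0.246, and 0.140 with the GC trend also removed), with total-count scaling (adjusted p = 0.0954) and with the filter on a mean of 1 CPM (adjusted p = 0.0559), in a range that began at 0.0184. Its partner Pdhb had 27.5, 32.1 and 34.7 CPM at rest and 46.9, 35.8 and 35.5 CPM after LPS and was not called (0.32 ± 0.24, adjusted p = 0.308). The pyruvate dehydrogenase kinases switch the enzyme off. Pdk3 had 8.75, 8.78 and 6.76 CPM at rest and 18.5, 16.0 and 13.6 CPM after LPS and rose by 0.98 ± 0.25 (adjusted p = 0.0118). Without the 3′RR-deficient libraries its adjusted p was 0.0532, the highest of a range from 0.004. Pdk1 had 19.4, 21.6 and 21.9 CPM at rest and 11.1, 19.9 and 16.1 CPM after LPS (-0.46 ± 0.24, adjusted p = 0.16). Pdk2 had 2.42 to 3.14 CPM at rest and 1.195 to 3.03 CPM after LPS (-0.55 ± 0.42, adjusted p = 0.315).

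All 3 genes of the oxidative arm of the pentose phosphate pathway were called higher. G6pdx, glucose phosphate dehydrogenase, which makes the first NADPH, had 12.05, 11.1 and 12.9 CPM in resting wt, Eμ-deficient and 3′RR-deficient B-cells and 17.6, 22.9 and 28.4 CPM after LPS (log2 fold change 0.91 ± 0.24, adjusted p = 0.0165). Pgls, the lactonase of the second step, had 44.8, 23.0 and 36.8 CPM at rest and 48.8, 53.8 and 88.1 CPM after LPS (0.87 ± 0.28, adjusted p = 0.035). Pgd, phosphogluconate dehydrogenase, which makes the next NADPH, had 32.1, 24.4 and 33.0 CPM at rest and 48.4, 57.3 and 70.2 CPM after LPS (0.97 ± 0.23, adjusted p = 0.01). The groups did not overlap for any of them, but the wt libraries differed least, and for Pgls the 95% interval of the wt ratio included 0 (log2 ratio 0.12, interval -0.01 to 0.26, counting error only). Without the Eμ-deficient libraries the adjusted p values of G6pdx, Pgls and Pgd were 0.0902, 0.182 and 0.0931. Without the 3′RR-deficient ones those of G6pdx and Pgls were 0.107 and 0.166. Over the 13 alternatives the lowest were 0.000788, 8.34e-05 and 0.000146. For G6pdx, Pgls and Pgd in turn, the call held under 11, 9 and 12 of these alternatives. Pgls shares 776 exon bases with Fam129c on the same strand, so that fragments there cannot be assigned to either.

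In the non-oxidative arm, 3 of 4 genes were called higher. Tkt, transketolase, had 108, 69.5 and 93.7 CPM in resting wt, Eμ-deficient and 3′RR-deficient B-cells and 169.9, 183 and 453 CPM after LPS (log2 fold change 1.44 ± 0.33, adjusted p = 0.00862). The LPS-stimulated 3′RR-deficient library stood far above the others. Rpia, ribose phosphate isomerase, which makes the ribose for nucleotides, had 37.7, 27.2 and 42.9 CPM at rest and 61.5, 58.7 and 76.6 CPM after LPS (0.88 ± 0.22, adjusted p = 0.0119). Rpe, the epimerase, had 17.8, 19.3 and 15.7 CPM at rest and 44.7, 34.5 and 23.8 CPM after LPS (0.92 ± 0.24, adjusted p = 0.0145). Rpe had its highest LPS-stimulated value in wt and its lowest in 3′RR-deficient B-cells, the other way round from Tkt. Most of this contrast in Rpe went with the trend on GC content. With that trend removed, its log2 ratio of LPS-stimulated 3′RR-deficient to wt went from -0.90 to -0.07. That of Tkt went from 1.41 to 0.94. Without the Eμ-deficient libraries Rpia and Rpe had adjusted p values of 0.126 and 0.0509, the highest of ranges from 0.000681 and 0.00208. Taldo1, transaldolase, had 69.9, 68.3 and 70.8 CPM at rest and 84.3, 85.7 and 124 CPM after LPS and was not called (0.47 ± 0.23, adjusted p = 0.137). Its resting values differed by less than those of any other gene of this arm, and without the wt libraries it was called (0.59, adjusted p = 0.0317, in a range up to 0.549).

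Hif1a encodes the oxygen-regulated subunit of the hypoxia-inducible factor, which is controlled mainly through protein stability. It had 47.8, 52.2 and 53.5 CPM in resting wt, Eμ-deficient and 3′RR-deficient B-cells and 48.6, 42.3 and 33.6 CPM after LPS, with a log2 fold change of -0.31 ± 0.23 (adjusted p = 0.306). The wt libraries were alike and the mutant ones lower after LPS. With the trend on GC content removed this contrast was gone. The LPS over resting log2 ratios were then -0.40 in wt, -0.28 in Eμ-deficient and -0.35 in 3′RR-deficient B-cells.

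The shares of related enzymes within a library do not depend on its scaling. They were computed from counts per kb of exon, and 3 libraries against 3 cannot give an exact permutation p below 0.1, so that no test was made. Hk2 made up 41.8%, 67.4% and 52.1% of hexokinase in resting wt, Eμ-deficient and 3′RR-deficient B-cells and 75.7%, 73.9% and 74.7% after LPS. The LPS-stimulated libraries were alike although the resting ones were not. Hk3 went from 10.6% to 13.3% at rest to 0.438% to 1.68% after LPS. The hexokinase shares depend on the length chosen. Exons cover 8532 nt in Hk1 and 5969 nt in Hk2, whereas the longest transcripts have 4278 and 5513 nt. With the longest transcript as length, the Hk2 share would be lower in every library and the Hk1 share higher. Eno1 made up 60.6%, 45.5% and 58.4% of enolase at rest and 87.9%, 88.0% and 96.0% after LPS, and Eno3 the larger part of the remainder. The Eno1 share depends on the length chosen, since its exons cover 5379 nt and its longest transcript 2027 nt. Pdk3 went from 49.5%, 49.1% and 41.6% of the pyruvate dehydrogenase kinases to 80.0%, 66.5% and 63.7%. Pdk1 went the other way in each genotype, from 36.2%, 39.9% and 44.4% to 15.8%, 27.2% and 24.8%. Aldoa held at least 96.4% of aldolase and Ldha at least 96.6% of lactate dehydrogenase in all 6 libraries. The phosphofructokinases had no common direction, with Pfkp at 34.2%, 41.8% and 38.7% at rest and 41.4%, 51.8% and 37.2% after LPS. Slc2a1 held 66.6%, 47.1% and 64.9% of the glucose carriers at rest and 63.5%, 67.1% and 78.9% after LPS, lower in wt and higher in both mutants.

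**Figure D3:**
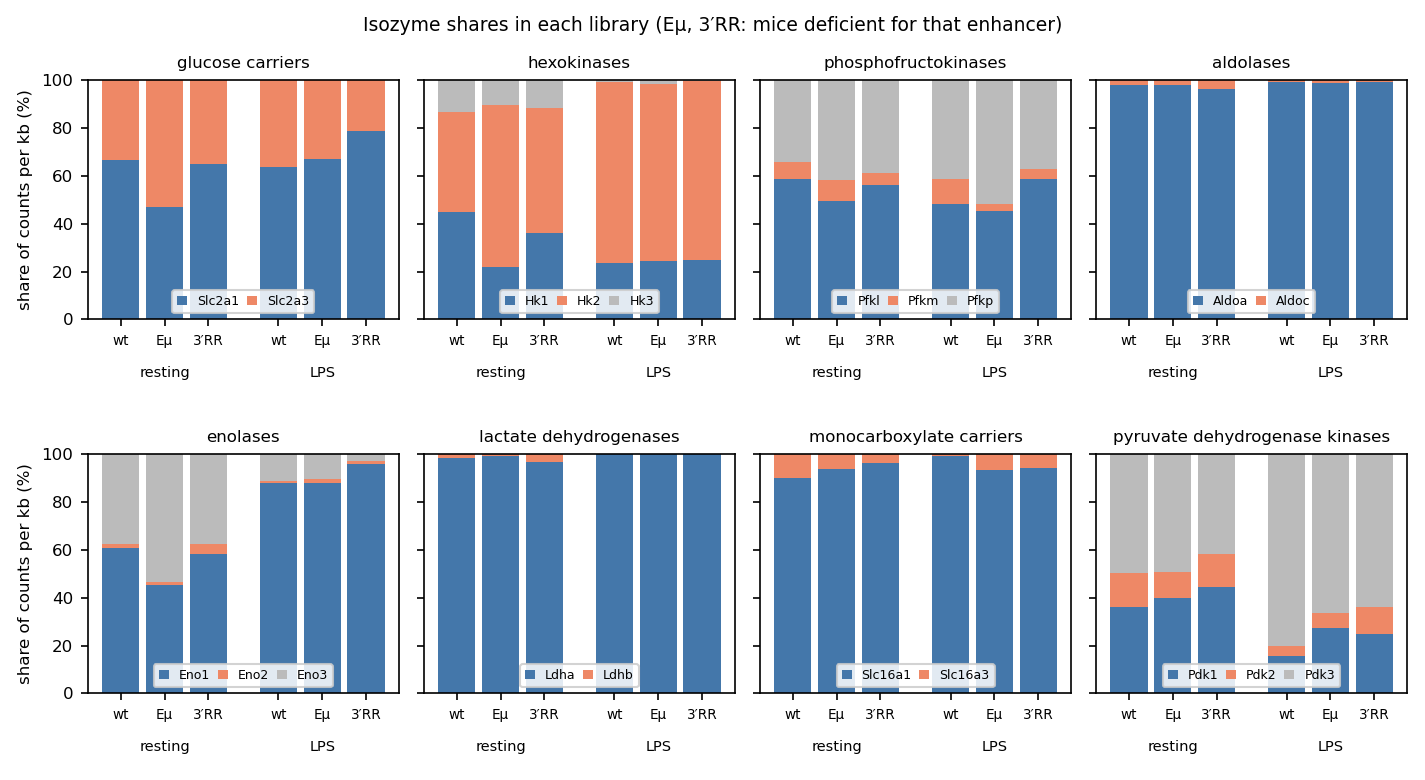
Share of each related gene in the summed counts per kb of its family, in percent, as stacked bars for the 6 libraries. Hk2 stood at 73.9% to 75.7% of hexokinase in all LPS-stimulated libraries, and Eno1 at 87.9% to 96.0% of enolase. Both shares depend on the length chosen, here every annotated exon base.

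Levels of different genes were compared only per kb of exon, where the length counts every annotated exon base of a gene. On this scale Gapdh was the highest member in both states, with means of 37.6 CPM per kb at rest and 242 CPM per kb after LPS. Aldoa, Taldo1, Pkm and Ldha followed at rest, with 34.5, 32.1, 28.2 and 19.3 CPM per kb. The ranges over genotypes of Gapdh (27.0 to 45.8), Aldoa (28.5 to 38.0), Taldo1 (31.5 to 32.6) and Pkm (21.7 to 32.8 CPM per kb) overlapped. After LPS, Pkm, Pgk1, Aldoa and Ldha followed Gapdh with means of 149.6, 119, 107 and 106 CPM per kb, and all 4 ranges overlapped. Slc2a1 went from the 9th to the 24th place and Taldo1 from the 3rd to the 8th. These places depend on the length chosen. The length used and the longest transcript were 4133 and 3289 nt for Gapdh, 2911 and 1549 nt for Aldoa, and 5001 and 2432 nt for Pkm. For Taldo1 they were 2171 and 1362 nt. With the longest transcript as length, Aldoa, Pkm and Taldo1 would stand above Gapdh at rest. Pkm would then be about level with Gapdh after LPS.

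The next question was whether these genes differ between the mutants and wt. Over both states the edgeR model called 0 of the 35 members in 3′RR-deficient and 0 in Eμ-deficient B-cells, where 0.678% and 1.16% of all genes were called. In 3′RR-deficient B-cells 0.171% of all genes were called higher and 0.507% lower, and in Eμ-deficient B-cells 0.911% and 0.253%. DESeq2's Wald test also called 0 in each, and at an unadjusted p under 0.05 edgeR had 0 and 1. Of all 14600 genes, 831 and 1267 had such a p in edgeR. The member was Hk2 in Eμ-deficient B-cells, with a log2 fold change of 0.96 ± 0.37 and an adjusted p of 0.443. The lowest adjusted p for 3′RR-deficient B-cells was 0.89, also that of Hk2 (0.82 ± 0.37). Both comparisons use the same wt libraries. Within a culture state each genotype is a single library, so that the following values are ratios of libraries with 95% intervals for counting error only, and no test between genotypes was possible there.

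In resting B-cells, the 3′RR-deficient library was close to wt for these genes. The median log2 ratio was -0.07 over the members and 0.02 over all genes, 16 members were higher (52.1% of all genes were) and 19 lower, and 0 differed by 2-fold or more, against 4.51% of all genes that were 2-fold higher and 3.38% lower. With a trend on GC content taken out, as is described with the resting Eμ-deficient library, 0 members were 2-fold higher, where 4.36% of all genes were. The most distant were Eno2 (log2 ratio 0.93, interval 0.33 to 1.69), Aldoc (0.82, interval 0.32 to 1.401) and Slc16a1 (0.71, interval 0.47 to 0.98). Eno2 and Aldoc were low in both libraries.

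The resting Eμ-deficient library had most of these genes below wt. The median log2 ratio was -0.29 over the members against 0.03 over all genes, with 12 higher and 23 lower, where 51.8% of all genes were higher. No member was 2-fold lower, where 5.23% of all genes were. The lowest were Slc2a1 (-0.99, interval -1.17 to -0.81), Pgls (-0.96, interval -1.16 to -0.77) and Pfkl (-0.86, interval -1.04 to -0.68). The only members at least 2-fold higher were Hk2 (1.42, interval 1.25 to 1.61) and Slc16a1 (1.35, interval 1.11 to 1.62), where 11.7% of all genes were 2-fold higher. Genes rich in G and C were lower in this library: across 14363 genes Spearman's rho of the log2 ratio with transcript GC content was -0.38, and after removal of that trend the members' median was -0.17 and Hk2 and Slc16a1 stood at 1.59 and 1.10. The erythroid, macrophage and neutrophil, plasma cell and T-cell markers were also highest in this library among the resting ones, and their part in these values was not tested.

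In LPS-stimulated B-cells, the Eμ-deficient library lay slightly above wt, with a median of 0.24 over the members against 0.00 over all genes. Of the members 26 were higher and 9 lower, where 50% of all genes were higher. At least 2-fold higher were Slc16a3 (2.77, interval 2.13 to 3.95), Eno2 (1.32, interval 0.51 to 2.403) and Hk3 (1.29, interval 0.14 to 3.05), where 8.9% of all genes were, and Pfkm was 2-fold lower (-1.41, interval -2.48 to -0.64), where 3.49% of all genes were. All 4 had 72 counts or fewer in either library. With the GC trend removed the members' median was 0.09 against -0.05 over all genes, and 3 members were 2-fold higher, where 7.92% of all genes were.

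The LPS-stimulated 3′RR-deficient library had the highest values. The members' median log2 ratio to wt was 0.77 against 0.05 over all genes, 28 were higher (52.4% of all genes were) and 7 lower, and 14 of 35 were at least 2-fold higher, where 11.8% of all genes were. They included Slc16a3 (2.60, interval 1.91 to 3.80), Pfkl (1.75, interval 1.61 to 1.90), Tkt (1.41, interval 1.35 to 1.48), Pkm (1.39, interval 1.35 to 1.44), Pfkp (1.31, interval 1.19 to 1.43) and Gapdh (1.11, interval 1.08 to 1.14). Rpe (-0.90, interval -1.13 to -0.69) and Eno3 (-0.88, interval -1.70 to -0.21) were the lowest, and 0 members were 2-fold lower (11.3% of all genes).

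This library and the LPS-stimulated wt one also differed in base composition. Across 14363 genes, Spearman's rho of the log2 ratio of this library to wt with GC content was 0.57. The 35 spike-in RNAs with at least 100 counts in every library had an SD of 1.27 in the same log2 ratio against 0.16 in the resting pair. Their LPS over resting log2 ratio had an SD of 0.78 in wt, 0.63 in 3′RR-deficient and 0.135 in Eμ-deficient B-cells. These values do not place the trend in 1 of the libraries. The members' transcripts had a median GC content of 52.6% (39.2% to 57.7%) against 49.04% over all genes. Once that trend was removed, the members' median was 0.51 against 0.03 over all genes, and 3 of 35 were at least 2-fold higher, where 6.79% of all genes were. These were Slc16a3 (1.98), Pfkp (1.32) and Pfkl (1.11). Tkt stood at 0.94, Gapdh at 0.74, Pkm at 0.73, Rpe at -0.07 and Eno3 at -1.38 on that scale, and Eno3 was then the only member at least 2-fold lower. The source of the trend was not tested.

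**Figure D4:**
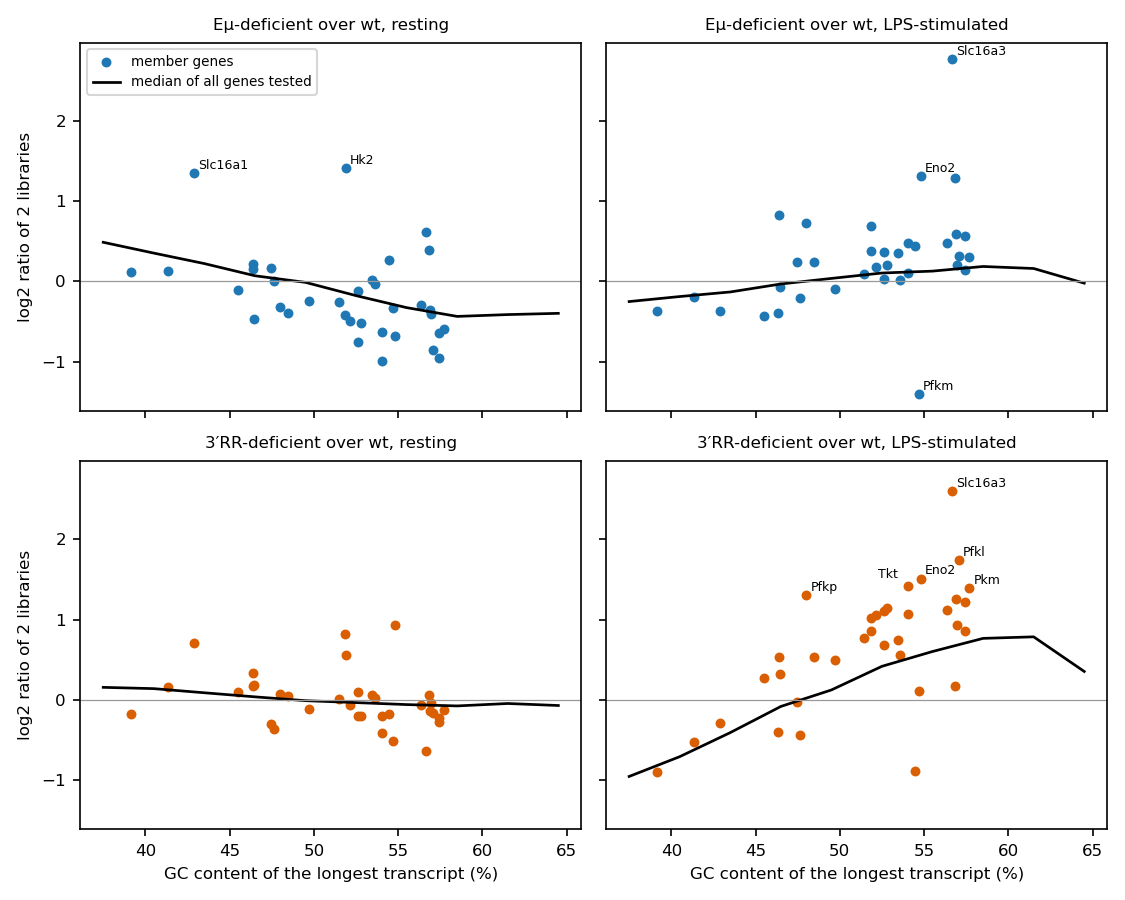
Log2 ratio of each mutant library over the wt library of the same state against the GC content of the longest transcript, in percent, for the 35 tested members (points) and the median of all genes tested in bins of GC content (line). In the LPS-stimulated 3′RR-deficient panel the line climbed with GC content and most points lay above it, with Slc16a3 at 2.60.

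The GC trend also touched the comparison of states, since the wt pair of libraries had a rho of -0.26 between the LPS over resting log2 ratio and GC content, the Eμ-deficient pair 0.02 and the 3′RR-deficient pair 0.15. With the trend removed the wt log2 ratio of Pkm went from 1.49 to 2.12, that of Eno1 from 0.80 to 1.42, that of Hk1 from -0.22 to 0.32 and that of Pfkl from -0.61 to -0.02. On that scale the model called 21 members higher and 4 lower, and 23 of 35 were higher in all 3 genotypes. Of all 14600 genes tested it called 3675 higher and 3637 lower, and 5253 were higher in all 3 genotypes.

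Among 69 further genes of glucose, lactate, pentose and glycogen metabolism and their regulators, 47 were tested. LPS-stimulated B-cells had 10 of them higher and 9 lower, where 19.7% and 21.1% of all genes were, with a median log2 fold change of -0.11, beside 0.87 over the members. Of the glycogen phosphorylases, which release glucose phosphate from glycogen, Pygl and Pygm fell. Pygl had 3.03, 9.15 and 4.57 CPM in resting wt, Eμ-deficient and 3′RR-deficient B-cells and 0.287, 0.375 and 0.449 CPM after LPS (-3.76 ± 0.45, adjusted p = 0.000361), and Pygm had 6.05 to 12.3 CPM and then 1.48 to 2.47 CPM (-2.15 ± 0.39, adjusted p = 0.00269). Pygb, the most abundant of the 3, had 26.7 to 37.3 CPM at rest and 34.7 to 54.6 CPM after LPS and was not called (0.33 ± 0.23, adjusted p = 0.283). The macrophage and neutrophil markers fell with Pygl, and their part was not tested. Myc, a transcription factor that drives many glycolytic genes, had 194, 139 and 114 CPM at rest and 45.8, 35.5 and 67.8 CPM after LPS (-1.60 ± 0.31, adjusted p = 0.0038), lower in every genotype. Slc2a6, a further hexose carrier that is named here after its values were seen, had 7.54, 4.77 and 7.10 CPM at rest and 10.8, 16.4 and 26.4 CPM after LPS, with no overlap, and was called higher (adjusted p = 0.00925). Of the 3 tested carriers of its group, 1 was called higher and 1 lower. The lower one was Slc2a9, with a log2 fold change of -1.19 ± 0.33 in the edgeR model (adjusted p = 0.0184). Slc16a7, the monocarboxylate carrier MCT2, was lower (-1.87 ± 0.43, adjusted p = 0.00787). Egln3, an oxygen sensor that marks the hypoxia-inducible factor for degradation, rose from 5, 2 and 6 counts to 19, 14 and 10 counts (2.13 ± 0.59, adjusted p = 0.0186). Of 20 genes of the TCA cycle, which burns the pyruvate that enters the mitochondrion, 12 were called higher and 0 lower, against the same 19.7% and 21.1% of all genes, with a median log2 fold change of 0.76. At an unadjusted edgeR p under 0.05, in either direction, there were 14 of the 20, where 7343 of all 14600 genes had such a p. The largest TCA cycle rises were the succinate dehydrogenase subunits Sdhd (1.85 ± 0.23, adjusted p = 0.000413) and Sdhc (1.38 ± 0.22), the isocitrate dehydrogenase subunit Idh3a (1.71 ± 0.23), citrate synthase Cs (1.14 ± 0.23) and malate dehydrogenase Mdh1 (1.09 ± 0.22). Sdhd had 29.4, 26.6 and 28.6 CPM at rest and 116, 82.5 and 108 CPM after LPS, with no overlap.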

How the data were processed

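Total RNA of CD43-depleted splenic B-cells was sequenced in 6 libraries, 1 per genotype and culture state. The deposited values are raw counts per gene name. Per the labels and methods, the authors made stranded, ribosomal RNA-depleted libraries, read 150 nt from both ends, mapped them to mm10 with STAR 2.4.0a and gene models of Ensembl release 77, and counted with featureCounts (Subread 1.4.6-p1) by strand, primary alignments only, with multi-mapping reads. Near-identical copies can therefore exchange counts. Of 68 coding genes with an antisense partner, 64 had under 10% antisense level, so the sense strand was counted. The labels give 2 mice per library, the methods 4 mice in 2 pools for every genotype. RNA extraction differs between labels (trizol) and methods (miRNeasy).

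The members and all gene lists were chosen with earlier results of these data known. The 92 spike-in RNAs were left out of library sizes. Genes with at least 10 counts in 2 libraries were fitted with edgeR 4.0.16 (R 4.3.3), and DESeq2 1.42.0 was an alternative. SE was the log2 fold change over the square root of F. Ratios of single libraries used a prior count of 2, with exact conditional (Clopper-Pearson) 95% intervals of the counts from scipy 1.17.1, which cover counting error only. GC content, lengths, biotypes and copies came from GENCODE M21. GC trends were removed by lowess per library. All members could be named, as could the 5 called genes with the largest change in the other lists. Alternatives covered scaling, test, filter, GC content, copies, block, length and leaving out each genotype.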

Additional observations from a re-analysis of the deposited data

Results flagged for a closer look

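Several genes moved opposite ways in different genotypes or states. Each group was a single library, so none of these differences was tested. With LPS, Hk1, Pfkl and Slc16a3 were lower in wt and higher in both mutants, and the largest differences between genotypes in the log2 ratio were 1.19, 1.91 and 3.23. With the GC trend removed, Hk1 was no longer opposite (wt log2 ratio 0.32), Pfkl stood at -0.02 in wt, and Slc16a3 at -0.41 in wt against 1.15 and 2.14 in Eμ-deficient and 3′RR-deficient B-cells. Slc16a3 had 14 to 57 counts per library.

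The mutant over wt ratio lay on opposite sides of 0 in resting and LPS-stimulated B-cells, with both 95% counting intervals excluding 0, for 14 members in Eμ-deficient mice (15.9% of all genes tested) and 11 in 3′RR-deficient mice (17.6%). Such an interval narrows with the counts of a gene. With the GC trend removed, 10 and 9 of these were still opposite, where 13.1% and 14.1% of all genes were. Both comparisons share the wt libraries. In Eμ-deficient B-cells the log2 ratio after LPS minus that at rest was 1.47 for Slc2a1, 1.17 for Pfkl, 1.05 for Pfkp, 1.21 for Eno1 and -1.72 for Slc16a1, and the median over the members was 0.53. In 3′RR-deficient B-cells it was 1.48 for Slc2a1, 1.91 for Pfkl, 1.31 for Gapdh, 1.34 for Pgam1, 1.45 for Eno1, 1.53 for Pkm, -1.01 for Slc16a1, 1.13 for Pgls and 1.62 for Tkt, with a median of 0.84. With the GC trend removed, the Eμ-deficient values were 1.02 for Slc2a1, 0.56 for Pfkl, 1.03 for Pfkp, 0.57 for Eno1 and -1.39 for Slc16a1. The 3′RR-deficient values were then 0.95 for Slc2a1, 1.21 for Pfkl, 0.89 for Gapdh, 0.91 for Pgam1, 0.72 for Eno1, 0.79 for Pkm, 0.41 for Pgls and 1.09 for Tkt, and Slc16a1, at -0.43, was no longer opposite. The part of base composition in what remained was not tested. No group had enough libraries to look for a sample far from the others.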

How the results depend on the processing

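Over 13 alternatives, 14 of the 21 members called with LPS were called in every one, and 7 members not called in the model were called in some. The number called higher was 16 with total-count scaling, 19 with DESeq2's Wald test or no filter, 17 with a mean filter of 1 CPM or no genotype block, and 21 with the GC trend removed. Leaving out each genotype gave 12 (without Eμ-deficient) to 24 (without wt), and 3 to 4 called lower. Over all genes the number called higher also moved, from 2115 of 14132 (without Eμ-deficient) to 3675 of 14600 (GC trend removed). With the GC trend removed and without 3′RR-deficient, an alternative chosen after seeing the data, 17 were called higher and 3 lower. Only genes that were not called changed direction. Leaving out a genotype gave Pfkl log2 fold changes of -0.040 (without 3′RR-deficient) to 0.97, Pfkm -0.30 (without 3′RR-deficient) to 0.62 and Eno2 -0.40 (without Eμ-deficient) to 0.51. Pfkm went to -0.0028 and Eno2 to -0.025 with total-count scaling, and Pfkm to -0.080 with the GC trend removed and without 3′RR-deficient. The mean rise of the Eno1 share with LPS was 35.8 percentage points, and 21.99 points with the longest transcript as length. The genotype comparisons had 0 members called under each alternative, while over all genes 25 were called higher and 74 lower in 3′RR-deficient B-cells (56 and 122 with DESeq2's Wald test, 135 and 204 without a filter) and 133 and 37 in Eμ-deficient ones (277 and 63, 484 and 121). Leaving out the third genotype is there the same as the fit to the 4 libraries compared. The LPS comparison was paired by genotype, as the block, and with 1 library per genotype and state no interaction could be fitted. Depth limits Ldhb, Hk3, Eno2, Pfkm and Slc16a3.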
